A study of Mus musculus with 21 samples.

Results

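Interferon response genes are the genes that cells switch on when interferons, the antiviral cytokines, bind their receptors. A set of 47 such mouse genes was named for this description, and its members were taken by gene symbol from the expression table. A row was found for 46 of the 47 members, out of 28987 gene identifiers in all, and Psmb9 was not analysed here. All 46 passed the filter on low values in every comparison.

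Type I interferons (the alpha and beta forms) signal through the receptor chains Ifnar1 and Ifnar2 and the kinases Jak1 and Tyk2 to a complex with Irf9 in it, which binds the interferon-stimulated response element (ISRE) in promoters. Interferon gamma signals through Ifngr1 and Ifngr2, acts at the gamma-activated site (GAS) and induces Irf1, the guanylate-binding proteins and the immunity-related GTPases. In blood stem cells, interferon is known to end dormancy and drive cycling, and many of these genes are also expressed at a basal level without infection.

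RNA came from mouse bone marrow cells sorted as long-term haematopoietic stem cells (LT-HSC, 15 libraries) or as multipotent progenitors (MPP, sorted as MPP3/MPP4, 6 libraries), with 3 libraries in each of 7 groups and 5 ng of RNA per library. The study removed the retinoid X receptors Rxra and Rxrb, nuclear receptors that act as partners of many others, with Vav1-Cre, a recombinase active throughout the blood system from fetal life on. In batch 1 the knockouts (written VaviCre+Rxrabfl/fl) were set against floxed controls without Cre (Rxrabfl/fl), each as MPP and as LT-HSC. In batch 2, which holds LT-HSC alone, the groups were knockouts that also carry 1 floxed Myc-family allele (Vav1Cre+Rxrabfl/fl Myclfl/+, called Myc allele libraries here because the labels give both Mycl and Myc), libraries labelled knockout (Vav1Cre+Rxrabfl/fl), and Cre controls with intact receptors (Vav1Cre+WT). Animals were pooled before sorting, neither the number per pool nor their age is given in the sources used here, and the p-values measure the spread between these libraries alone.

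Markers went with the sorts. The summed level of 14 LT-HSC markers was 297 to 391 in MPP libraries and 754 to 1280 in LT-HSC libraries, and that of 10 MPP markers was 1180 to 2010 in MPP and 46.7 to 126 in LT-HSC. Levels are TPM, the length-corrected share of a transcript in its library, after each library was rescaled by a median-of-ratios factor, because 1 identifier takes 10.6% to 51.8% of the deposited scale. The depth behind a TPM is unknown. As a check of the deletion, a junction that skips Rxra exon 8 had a share of junction reads of 0.938 in LT-HSC knockout 1 and of 1.0 and 0.5 in MPP knockouts 1 and 3, the batch 1 knockouts with a value, against 0.0 to 0.1 in floxed controls. It was 0.647, 0.0 and 1.0 in the Myc allele libraries and 0.0, 0.0127 and 0.0 in the libraries labelled knockout, against 0.0 in the 3 Cre controls, so the label of that group goes against this readout and it is called the libraries labelled knockout throughout.

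Promoter sequence is shown for members called in batch 1 and chosen because an ISRE core lay before the start in their window. Apart from Irf1, each stretch shown thus holds an ISRE match by selection. The windows of Oasl1, Xaf1 and Ifi47 held no ISRE core, and no window was matched for Iigp1, Zbp1, Mx1 and Oas2. RefSeq promoter windows of build GRCm38.p6, from 250 bases before to 50 bases after a gene's start, were matched for 36 of the 47 members. The core of the ISRE was searched on both strands as 2 copies of GAAA with any 2 bases between them, which read as 2 copies of TTTC where the match lies on the other strand, and it was found in 17 of the 36 members (47.2%), against 3.99% of all 27025 genes with a window. The GAS core, TTCNNNGAA, which reads the same on both strands, was found in 12 of the 36 members (33.3%), against 9.55% of all genes. A match describes the letters in the window and is not a measured binding site. Below, 15 bases are kept on each side, the sequence runs 5′ to 3′ along the gene's own strand, and capitals mark ISRE core matches.

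Antiviral genes of the type I response, each higher in MPP, are given first.
Rsad2, chr12:26456548-26456587, minus strand: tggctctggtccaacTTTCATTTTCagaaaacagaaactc
Isg15, chr4:156200860-156200911, minus strand: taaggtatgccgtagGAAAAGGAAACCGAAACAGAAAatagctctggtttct
Ifit1, chr19:34640770-34640828, plus strand: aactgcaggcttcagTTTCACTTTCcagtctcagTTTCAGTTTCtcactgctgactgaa

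Isg15 holds 3 overlapping matches, the first 78 bases before the start, and Ifit1 holds 2 separate ones. The guanosine triphosphatases of the interferon gamma response shown next carry the same core close to their starts. It lies in reverse in the guanylate-binding proteins and forward in Igtp. All but Gbp3 in the next set were lower in MPP.
Igtp, chr11:58199507-58199546, plus strand: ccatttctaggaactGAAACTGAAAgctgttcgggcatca
Gbp2, chr3:142620589-142620628, plus strand: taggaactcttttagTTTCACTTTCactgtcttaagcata
Gbp7, chr3:142530268-142530307, plus strand: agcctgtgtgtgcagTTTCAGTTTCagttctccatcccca
Gbp3, chr3:142559984-142560029, plus strand: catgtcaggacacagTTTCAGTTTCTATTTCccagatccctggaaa

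Oas3 is the one shown of the genes called higher in knockout LT-HSC, and it does not stand for Xaf1, whose window held no match. Irf1 was added after its values were seen, and its capitals mark the GAS core match, 90 bases before the start.
Oas3, chr5:120777710-120777749, minus strand: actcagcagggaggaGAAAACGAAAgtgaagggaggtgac
Irf1, chr11:53769909-53769947, plus strand: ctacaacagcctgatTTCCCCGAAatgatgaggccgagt

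The first comparison asks how the genes differ between the progenitors and the stem cells, in the knockouts and in the floxed controls of batch 1. Members were called in both directions, and most were not called. In MPP, Oasl1, Rsad2, Isg15, Ifit1 and Mx1, inducible antiviral genes, were higher than in LT-HSC in both genotypes, by 1.14 to 3.22 on the log2(rescaled TPM + 1) scale. Iigp1, Igtp, Gbp2 and Gbp7, GTPases of the interferon gamma response, and the sensors Zbp1 and Ifih1 were lower in MPP in both genotypes. Of the 46 members, 7 were higher and 8 lower in MPP knockouts than in LT-HSC knockouts, where 12.1% of all 14621 genes were called higher and 11.6% lower (limma, Benjamini-Hochberg adjusted p under 0.05 over all genes, which is the rule for every call here). Between floxed controls 11 members were higher and 10 lower, against 12% and 12.2% of all genes. As shares of the members, the calls were 15.2% higher and 17.4% lower in knockouts and 23.9% and 21.7% in floxed controls, with 31 and 25 members not called. The median log2 change was -0.00 over the members in knockouts and 0.12 in floxed controls, against 0.03 and 0.02 over all genes. All 7 members called higher in knockouts were among the 11 of the floxed controls (100% and 63.6% of the lists), and 6 members were called lower in both genotypes (75% and 60%). In bulk RNA, fewer cells with a transcript and less of it per cell cannot be told apart.

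**Figure D1:**
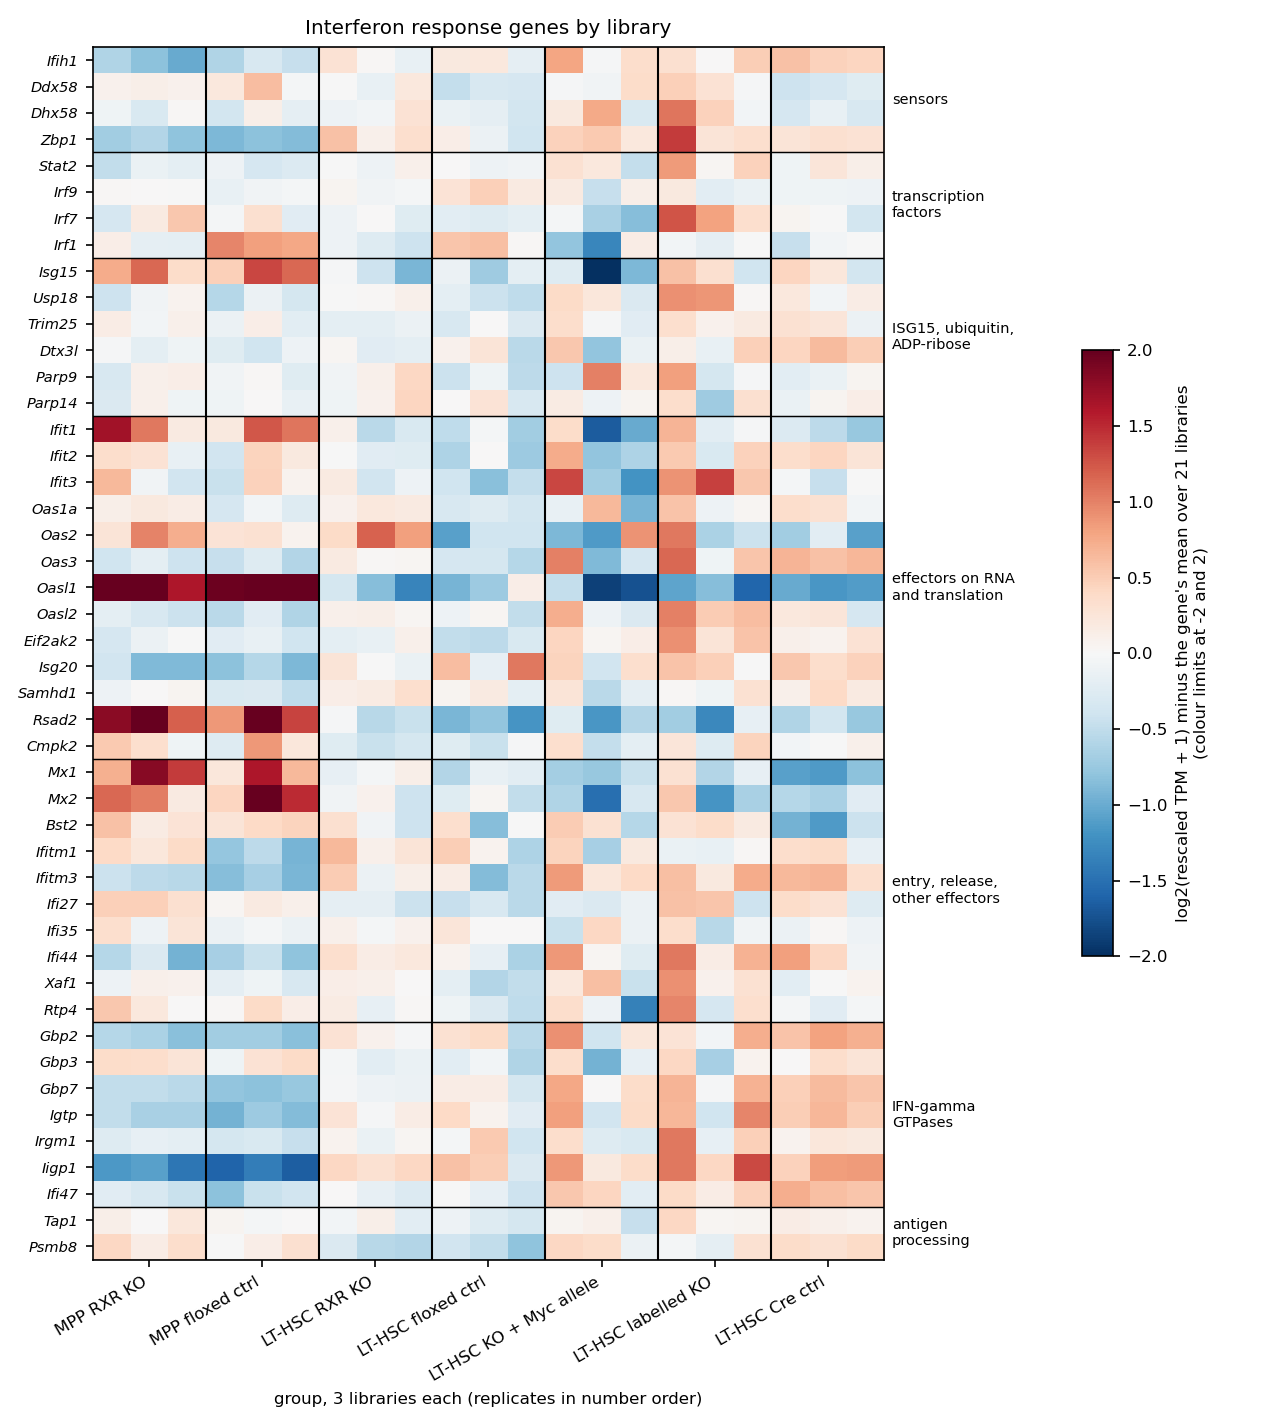
Level of 46 interferon response genes in 21 libraries, as log2(rescaled TPM + 1) minus the gene's mean over all libraries; rows are genes in role groups, columns are libraries in 7 groups of 3. Oasl1 and Rsad2 are red in all 6 MPP libraries, while Iigp1 is blue there.

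Oasl1, a member of the oligoadenylate synthetase family without synthetase activity that in mice restrains translation of Irf7, had the greatest log2 difference among the members. It had 50.8, 51.9 and 25.9 TPM in MPP knockouts, against 5.84, 3.87 and 2.51 TPM in LT-HSC knockouts. In floxed controls it had 33.1, 95.0 and 57.1 TPM in MPP and 3.62, 4.29 and 8.59 TPM in LT-HSC. Every MPP library lay above every LT-HSC library, and the log2 differences were 3.10 ± 0.40 (SE, limma adjusted p = 0.000127) in knockouts and 3.22 ± 0.40 (adjusted p = 9.22e-05) in floxed controls. Rsad2 (viperin), which makes a chain-terminating nucleotide against viral polymerases, had 44.8, 61.1 and 29.0 TPM in MPP knockouts, against 11.9, 7.92 and 8.68 TPM in LT-HSC knockouts. Floxed MPP held 23, 63.9 and 32.6 TPM of Rsad2, against 5.98, 6.62 and 4.81 TPM in floxed LT-HSC. Again no MPP library overlapped the LT-HSC libraries of its genotype, with log2 differences of 2.09 ± 0.33 (limma adjusted p = 0.000592) and 2.47 ± 0.33 (adjusted p = 0.000155).

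Isg15, the ubiquitin-like protein that is attached to other proteins during the response, had 22.2, 29.6 and 16.9 TPM in MPP knockouts and 12.6, 9.40 and 6.36 TPM in LT-HSC knockouts. In floxed controls its level was 18.2, 34.0 and 29.5 TPM in MPP, against 11.7, 7.45 and 11.1 TPM in LT-HSC. The groups did not overlap in either genotype, and Isg15 was higher in MPP by 1.20 ± 0.28 (SE, log2, limma adjusted p = 0.00771) in knockouts and by 1.33 ± 0.28 (adjusted p = 0.0043) in floxed controls. Ifit1, which binds viral RNA that lacks cap methylation, had 21.6, 13.7 and 6.97 TPM in MPP knockouts, against 6.57, 3.88 and 4.74 TPM in LT-HSC knockouts. Its levels in floxed controls were 7.12, 15.7 and 13.9 TPM in MPP and 3.98, 5.91 and 3.35 TPM in LT-HSC. Every MPP library was above the LT-HSC libraries of its genotype, in knockouts by little, and the log2 differences were 1.21 ± 0.36 (limma adjusted p = 0.0261) and 1.25 ± 0.36 (adjusted p = 0.0222).

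Mx1 and Mx2 are dynamin-like GTPases that trap viral nucleocapsids. Mx1 had 6.45, 15.1 and 11 TPM in MPP knockouts, against 3.07, 3.43 and 3.95 TPM in LT-HSC knockouts. In floxed controls it had 4.34, 13 and 6.12 TPM in MPP and 2.03, 3.14 and 2.93 TPM in LT-HSC. All MPP libraries were above the LT-HSC libraries of their genotype, by 1.34 ± 0.33 (SE, log2, limma adjusted p = 0.0102) and 1.14 ± 0.33 (adjusted p = 0.0224). Mx2 had 3.89, 13.7 and 9.24 TPM in floxed MPP, against 2.09, 2.74 and 1.60 TPM in floxed LT-HSC, a log2 difference of 1.54 ± 0.35 (limma adjusted p = 0.00701). Knockout MPP had 7.08, 6.44 and 3.15 TPM of Mx2, against 2.48, 2.86 and 1.73 TPM in knockout LT-HSC, and the log2 difference of 0.92 ± 0.35 did not pass (limma adjusted p = 0.0769). MPP floxed control 2 was the highest of the 6 MPP libraries for Oasl1, Rsad2, Isg15 and Mx2, and without it 7 in place of 11 members were called higher between floxed controls.

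Psmb8, a subunit of the immunoproteasome that cuts peptides for display, was the highest member of its role group, with 96.9, 80.2 and 92.8 TPM in MPP knockouts and 58.9, 48.9 and 47.7 TPM in LT-HSC knockouts. Floxed MPP had 71.8, 79.6 and 90.4 TPM of it, against 55.1, 51.1 and 41.1 TPM in floxed LT-HSC. It was higher in MPP by 0.79 ± 0.14 (SE, log2, limma adjusted p = 0.0018) in knockouts and 0.71 ± 0.14 (adjusted p = 0.00351) in floxed controls, without overlap. Ifi27, a small membrane protein, was higher by 0.68 and 0.55 (limma adjusted p = 0.000944 and 0.00386). Oas2, which makes the activator of the RNA-cutting enzyme RNase L, was called higher in MPP between floxed controls, with 5.40, 5.58 and 4.57 TPM in MPP and 1.5, 3.03 and 3.04 TPM in LT-HSC (log2 difference 0.84 ± 0.25, limma adjusted p = 0.0254). In knockouts the Oas2 groups overlapped, at 5.38, 9.63 and 7.80 TPM in MPP and 5.93, 11.1 and 8.40 TPM in LT-HSC.

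**Figure D2:**
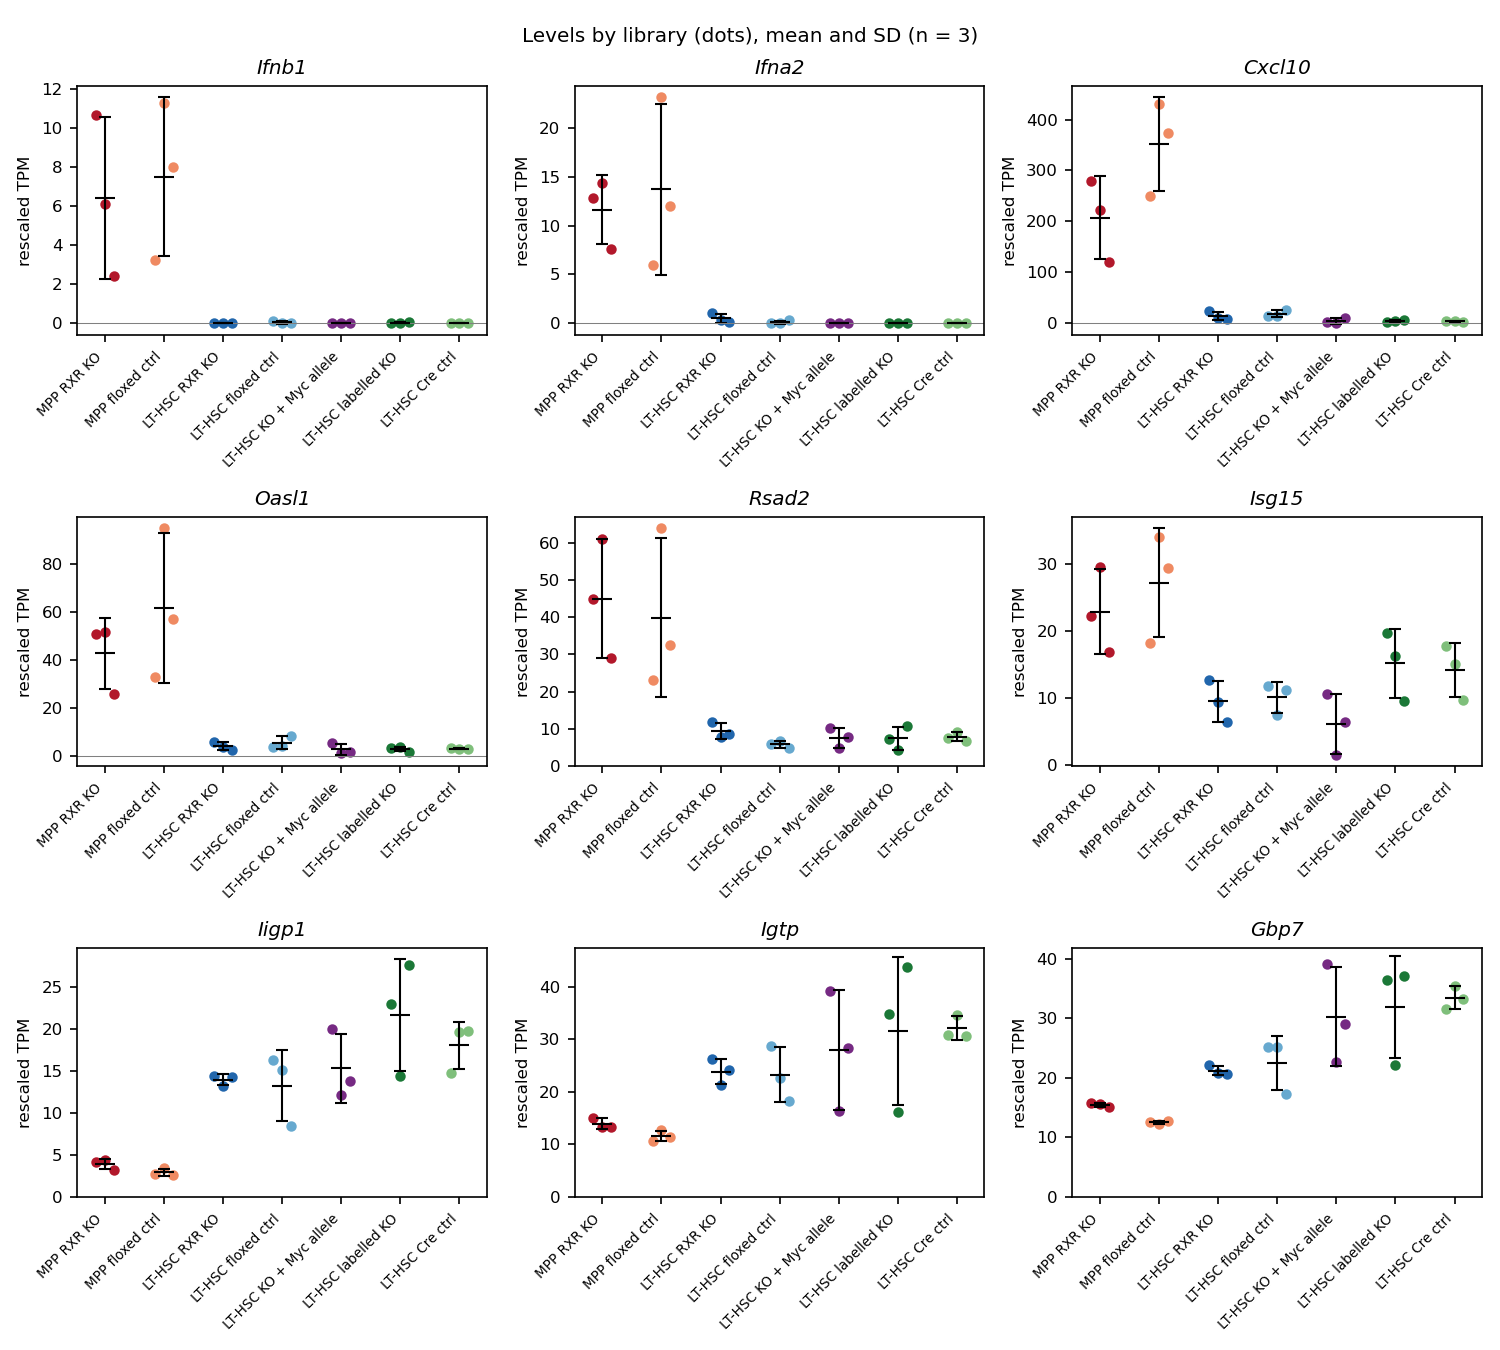
Rescaled TPM of 9 genes, each dot 1 library and the bars mean and SD of 3 libraries, by group. Ifnb1, Ifna2, Cxcl10, Oasl1, Rsad2 and Isg15 are higher in MPP than in the LT-HSC of batch 1, while Iigp1, Igtp and Gbp7 are lower in MPP; Ifnb1 is at or near 0 in all 15 LT-HSC libraries.

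The members lower in MPP were led by Iigp1, an immunity-related GTPase that disrupts the vacuoles of intracellular parasites. It had 4.16, 4.42 and 3.22 TPM in MPP knockouts, against 14.4, 13.2 and 14.3 TPM in LT-HSC knockouts. Floxed MPP had 2.79, 3.43 and 2.66 TPM and floxed LT-HSC 16.3, 15.1 and 8.42 TPM. All 6 MPP libraries were below all 15 LT-HSC libraries of both batches, and Iigp1 fell by 1.61 ± 0.20 (SE, log2, limma adjusted p = 0.000102) in knockouts and by 1.81 ± 0.20 (adjusted p = 3.89e-05) in floxed controls.

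Igtp, a related GTPase that guards the cell's own membranes, had 15.1, 13.4 and 13.4 TPM in MPP knockouts, against 26.2, 21.3 and 24.1 TPM in LT-HSC knockouts. Floxed MPP had 10.7, 12.7 and 11.4 TPM of Igtp, against 28.7, 22.7 and 18.3 TPM in floxed LT-HSC. It fell in MPP without overlap, by 0.73 ± 0.15 (SE, log2, limma adjusted p = 0.00406) in knockouts and by 0.93 ± 0.15 (adjusted p = 0.000788) in floxed controls. Gbp2 and Gbp7 are guanylate-binding proteins, which coat pathogen compartments. Gbp2 had 9.58, 9.12 and 7.82 TPM in MPP knockouts, against 18.2, 15.6 and 14.4 TPM in LT-HSC knockouts, and Gbp7 had 15.7, 15.6 and 15.1 TPM against 22.1, 20.9 and 20.7 TPM. In floxed controls Gbp2 had 8.65, 8.65 and 7.76 TPM in MPP, against 18.4, 19.5 and 9.75 TPM in LT-HSC, and Gbp7 had 12.6, 12.3 and 12.8 TPM against 25.1, 25.1 and 17.3 TPM. For both genes every MPP library was below every LT-HSC library of its genotype. Gbp2 fell by 0.79 ± 0.21 (log2, limma adjusted p = 0.0145) in knockouts and by 0.80 ± 0.21 (adjusted p = 0.0136) in floxed controls, and Gbp7 by 0.44 ± 0.13 (adjusted p = 0.0334) and 0.77 ± 0.13 (adjusted p = 0.00121).

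Not all GTPases of the group moved this way. Ifi47, the highest of them, had 55.4, 52.2 and 47.8 TPM in MPP knockouts against 65.5, 58.1 and 54.0 TPM in LT-HSC knockouts, with no call in either genotype. Gbp3 was called higher in floxed MPP, at 12, 15.9 and 16.9 TPM, against 10.9, 12.2 and 8.04 TPM in floxed LT-HSC (log2 difference 0.49 ± 0.16, limma adjusted p = 0.0374), although these groups overlapped. Of the 7 GTPases, 0 were higher and 4 lower in MPP among knockouts, and 1 was higher and 4 were lower among floxed controls. The guanylate-binding proteins, like the Oas, Ifit and Ifitm families, have close copies between which reads may be split, and how that was handled is not given in the sources used here.

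Isg20, an exonuclease of single-stranded RNA, had 17.9, 21.4 and 16.8 TPM in floxed MPP, against 50.1, 28.6 and 68.2 TPM in floxed LT-HSC. In knockouts it had 24.6, 17 and 17 TPM in MPP and 38.9, 31.9 and 29.2 TPM in LT-HSC. The groups did not overlap, and the log2 difference passed between floxed controls (-1.27 ± 0.26, limma adjusted p = 0.0033) but not between knockouts (-0.75). Zbp1, a sensor of Z-form nucleic acid that can trigger cell death, had 7.35, 7.96 and 6.72 TPM in MPP knockouts, against 19.3, 13.5 and 16.0 TPM in LT-HSC knockouts. Its floxed MPP levels were 6.21, 6.65 and 6.38 TPM, against 13.8, 11.5 and 9.20 TPM in floxed LT-HSC. It fell in MPP by 1.04 ± 0.16 (SE, log2, limma adjusted p = 0.000447) in knockouts and 0.74 ± 0.16 (adjusted p = 0.00444) in floxed controls.

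The RNA sensors differed from each other. Ifih1 (MDA5), which detects long double-stranded RNA, fell in MPP by 0.87 (log2, limma adjusted p = 0.00176) in knockouts and by 0.54 (adjusted p = 0.0263) in floxed controls. Ddx58 (RIG-I), which detects RNA ends with a triphosphate and was the highest sensor, had 64.0, 65.9 and 64.0 TPM in MPP knockouts and 59.9, 54.8 and 70.3 TPM in LT-HSC knockouts, which overlap. In floxed controls it had 70.2, 93.1 and 58.6 TPM in MPP, against 43.1, 48.5 and 47.9 TPM in LT-HSC, a rise of 0.63 ± 0.16 (limma adjusted p = 0.0102). Further members called lower in MPP were Ifi44 (-0.84) and Oas3 (-0.42) between knockouts, and Ifitm1 (-0.72), Irf9 (-0.40) and Samhd1 (-0.38) between floxed controls.

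The most abundant members were the interferon-induced transmembrane proteins, which block viral fusion at membranes. Ifitm3 had 657, 621 and 603 TPM in MPP knockouts, against 1260, 819 and 965 TPM in LT-HSC knockouts, a log2 difference of -0.67 ± 0.23 that did not pass (limma adjusted p = 0.0555). Samhd1, which breaks down DNA building blocks, was the highest of its role group, the antiviral effectors on RNA and translation. It had 50.9, 55.1 and 57.0 TPM in MPP knockouts and 60.0, 61.4 and 69.3 TPM in LT-HSC knockouts. Trim25, the ubiquitin ligase that activates RIG-I, led its role group at 33.6, 29.2 and 32.5 TPM in MPP knockouts and 26.3, 26.2 and 27.7 TPM in LT-HSC knockouts, without a call. Among knockouts Ifitm3 and Samhd1 were lower in every MPP library than in every LT-HSC library and Trim25 was higher, and none of them passed. Same-numbered knockout MPP and LT-HSC libraries deviated together, and with the number as a block 8 members were higher and 11 lower between knockouts, with Mx2 (adjusted p = 0.0281), Isg20 (0.0474), Ifitm3 (0.0442) and Oasl2 (0.02) added to the calls. Without MPP knockout 3 there were 5 calls lower in knockouts, and without LT-HSC floxed control 1 or 2 or MPP floxed control 1 there were 6 in floxed controls. On deposited TPM 14 members were higher and 3 lower between floxed controls, with a median over all genes of 0.26 (log2), and 5 were higher and 11 lower between knockouts, with a median of -0.205.

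**Figure D3:**
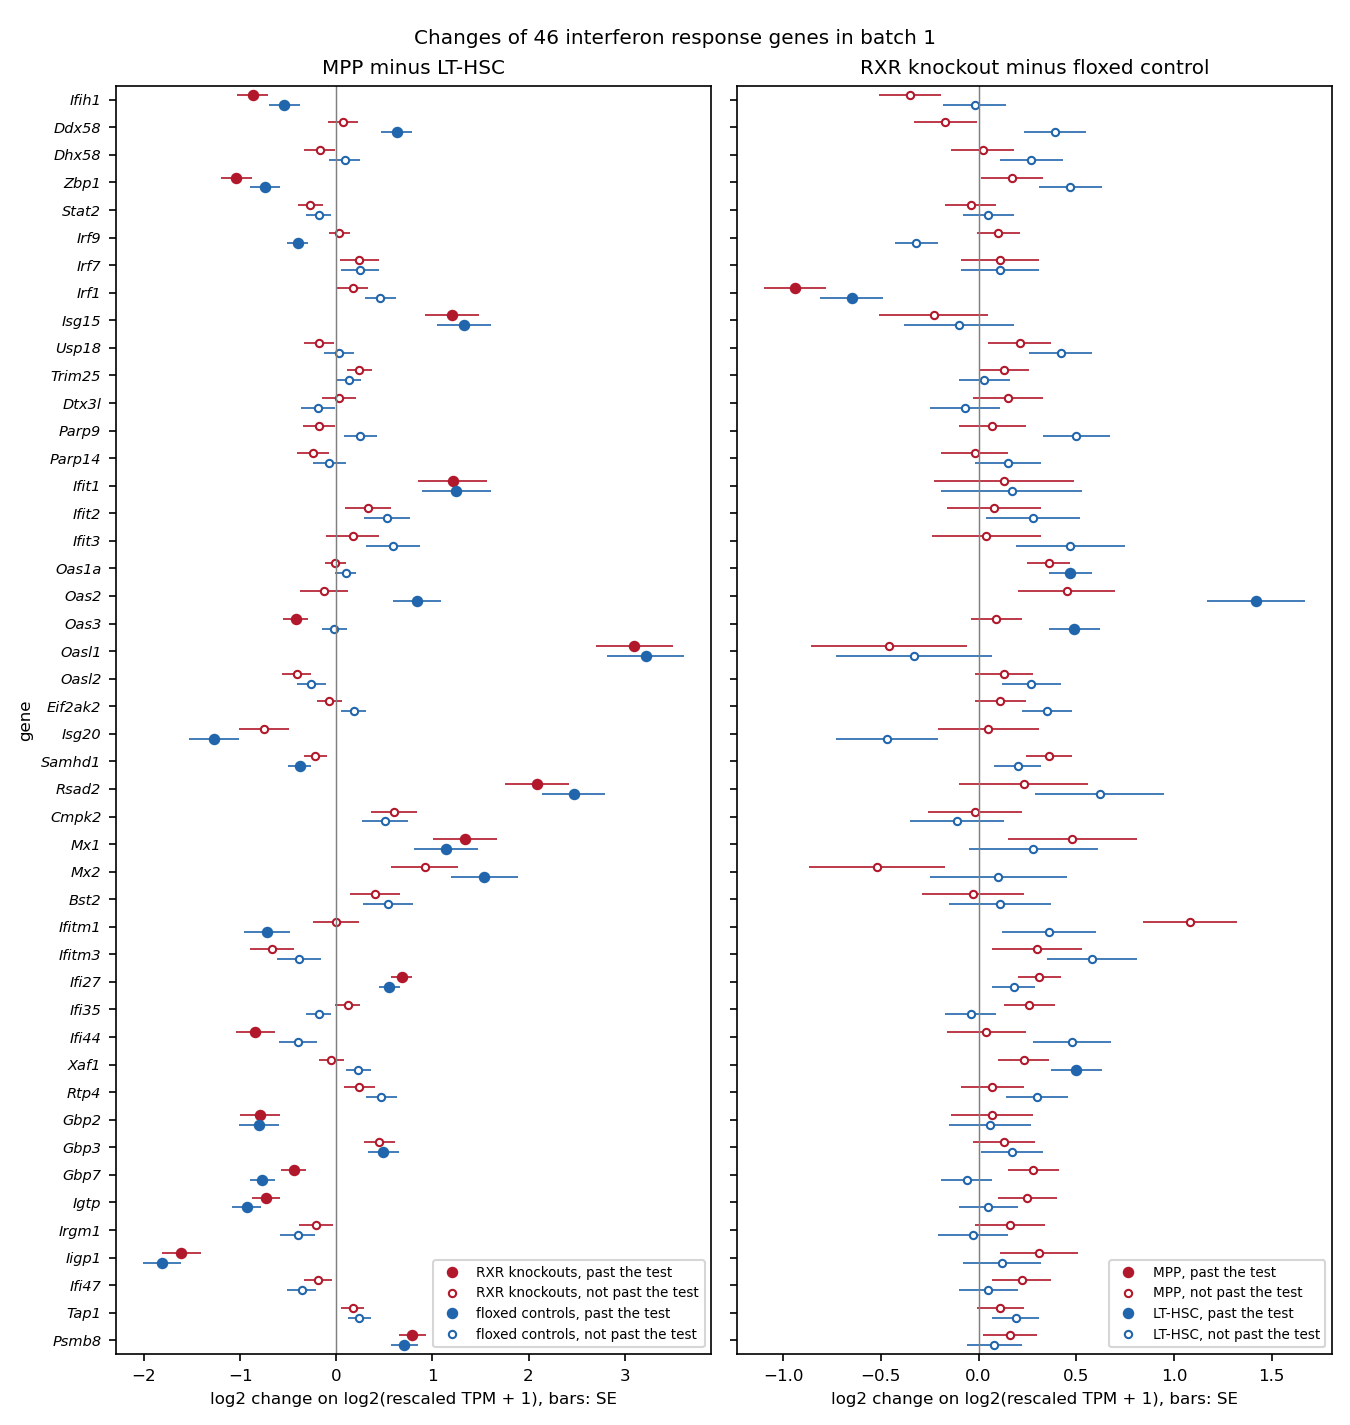
Log2 change with its SE for 46 genes in batch 1, on log2(rescaled TPM + 1): left MPP minus LT-HSC, right RXR knockout minus floxed control. Filled points passed the test; on the left they lie on both sides of 0 in each genotype, and on the right they are Irf1 in both cell types and Xaf1, Oas1a, Oas2 and Oas3 in LT-HSC.

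The rest of the pathway was read in lists chosen with earlier results known. Transcripts of the interferons themselves were present in MPP. Ifnb1 (interferon beta) had 10.7, 6.10 and 2.44 TPM in MPP knockouts and was listed at 0 in all LT-HSC knockouts. In floxed controls it had 3.22, 11.3 and 8.03 TPM in MPP, against 0.116, 0.0 and 0.0 TPM in LT-HSC. Ifna2 (an interferon alpha) had 12.9, 14.4 and 7.65 TPM in MPP knockouts, against 0.992, 0.31 and 0.113 TPM in LT-HSC knockouts. No MPP library overlapped the LT-HSC libraries of its genotype for either gene. Both reached 1 TPM in MPP alone, so they entered the fit through MPP and their tests are not read. The filter on low values kept 4 of the 11 ligands measured, Ifna2, Ifna4, Ifna16 and Ifnb1, all with higher means in MPP, so the filter itself favoured ligands high in MPP and no count of them is read. Ifng was at most 0.395 TPM in any library. The interferon alpha genes are close copies of each other, so which of them the reads came from is uncertain.

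Among chemokines induced by interferon, Cxcl10 and Ccl5 were higher in MPP, while Cxcl11 averaged 0.579 TPM in MPP knockouts and 0.951 TPM in LT-HSC knockouts and Cxcl9 averaged 1.23 and 1.14 TPM. Cxcl10, which draws in activated lymphocytes, had 279, 223 and 119 TPM in MPP knockouts, against 23, 10.2 and 7.32 TPM in LT-HSC knockouts. In floxed controls it had 250, 431 and 373 TPM in MPP, against 14.1, 14.5 and 26.2 TPM in LT-HSC (log2 difference 4.21 ± 0.40, limma adjusted p = 9.59e-06). Ccl5, a chemokine for T cells and monocytes, averaged 35.4 ± 11.1 TPM in MPP knockouts and 1.89 ± 0.52 TPM in LT-HSC knockouts (SD, n = 3 each). Of 71 further interferon-stimulated genes tested, 6 were higher and 22 lower in MPP among knockouts, and 14 were higher and 15 lower among floxed controls, against the shares of all genes given above for these comparisons. Gbp8 averaged 0.71 ± 0.0866 TPM in MPP knockouts and 8.59 ± 0.80 TPM in LT-HSC knockouts, and Gbp4 0.322 ± 0.0793 and 4.18 ± 0.32 TPM. Both averaged under 1 TPM in MPP knockouts, so the filter on low values favoured them through their levels in LT-HSC. Their calls are therefore not read, and neither are the counts of this list.

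Of 15 upstream sensing genes tested, 5 were higher and 1 lower in MPP among knockouts, against 12.1% and 11.6% of all genes. Among floxed controls 6 were higher and 2 lower, against 12% and 12.2% of all genes, and the others were not called. Tlr7, the endosomal receptor for single-stranded RNA, averaged 7.77 ± 0.312 TPM in MPP knockouts and 0.067 ± 0.0533 TPM in LT-HSC knockouts (SD, n = 3 each, log2 difference 3.04, limma adjusted p = 1.48e-07). Tlr7 is among the genes counted as higher in both genotypes, but it reached 1 TPM in MPP alone. It thus entered the fit through MPP, and its call is not read. Cgas, the DNA sensor, its partner Tmem173 (STING), and Unc93b1, which carries Toll-like receptors to endosomes, were higher in both genotypes, by 0.89 to 1.17. Trex1, the nuclease that clears cytosolic DNA, was higher in MPP by 1.14 in knockouts and 1.72 in floxed controls, and of 16 inhibitors tested 3 were higher and 2 lower among knockouts and 1 was higher and 4 were lower among floxed controls. Of 21 genes of antigen display on class I molecules, 3 were higher and 3 lower in MPP among knockouts, and 1 was higher and 3 were lower among floxed controls. The counts of inhibitors and of antigen display genes stand against the same shares of all genes, and neither is read as a result about its list. Receptor chains differed too, with Ifnar2 at 76.7 ± 4.30 TPM in MPP knockouts and 43.1 ± 4.10 TPM in LT-HSC knockouts, and Jak2, a kinase of the gamma receptor, lower at 11.4 ± 1.07 and 16.6 ± 1.09 TPM.

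Markers of other blood cells also moved with the cell type. The summed level of 8 plasmacytoid dendritic cell markers, a cell known for making type I interferon, was 14.4 to 29.0 TPM in MPP knockouts and 4.23 to 5.55 TPM in LT-HSC knockouts, and 20.9 to 26.7 TPM in floxed MPP and 2.69 to 3.95 TPM in floxed LT-HSC. Ccr9 is also on the MPP list. Cox6a2 carried much of the sum, at 16.7, 7.66 and 11.1 TPM in MPP knockouts and 0.0, 0.0 and 0.051 TPM in LT-HSC knockouts, while Siglech overlapped at 1.67, 1.74 and 2.46 TPM and 1.34, 1.54 and 2.45 TPM. Of 6 markers of the list tested, 3 were higher in MPP in each genotype and 1 was lower in floxed MPP. Cox6a2, Ly6d and Ccr9 reached 1 TPM in MPP alone, so the filter itself favoured markers high in MPP and this count is not read. For 11 markers of monocytes, macrophages and dendritic cells the sums were 90.2 to 143 TPM in MPP knockouts and 7.12 to 25.2 TPM in LT-HSC knockouts, and 50.6 to 87.4 and 3.80 to 6.11 TPM in floxed MPP and LT-HSC. The 9 B cell markers summed to 633 to 6180 TPM in MPP knockouts and 257 to 800 TPM in LT-HSC knockouts, and to 2100 to 11400 and 15.7 to 223 TPM in floxed MPP and LT-HSC. Neutrophil markers summed to 1110 to 1940 TPM in MPP knockouts and 138 to 1020 TPM in LT-HSC knockouts, and to 410 to 1510 and 45.9 to 109 TPM in floxed MPP and LT-HSC. Mpo, which is also on the MPP list, carried much of the MPP sums, at 805 to 1280 TPM in knockouts and 369 to 1300 TPM in floxed controls. S100a8 overlapped between knockout MPP and LT-HSC, and was lower in floxed MPP, at 4.47 to 14.4 TPM, than in floxed LT-HSC, at 15.7 to 36.9 TPM. Of 8 neutrophil markers tested, 2 were called higher and 0 lower in MPP in each genotype. Of 11 erythroid markers, 4 were called lower in MPP among knockouts, against 11.6% of all genes. Among floxed controls 10 were, against 12.2%. Of megakaryocyte markers 5 of 5 were called lower in each genotype. Gp1bb was under 1 TPM in every MPP library and Ppbp in all but MPP knockout 2 (1.07 TPM). The filter thus favoured megakaryocyte markers high in LT-HSC, and their count is not read. No marker of these lists was at 0 in all libraries of an MPP group, and among LT-HSC of batch 1 Vpreb3 and Adgre1 were at 0 in the floxed controls. Their part in the levels of the interferon genes was not tested.

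The next comparison sets knockouts against floxed controls of batch 1. The knockouts carry Vav1-Cre and these controls do not, so Cre and loss of the receptors cannot be told apart. In both cell types Irf1, the transcription factor that interferon gamma induces through a GAS, was the one member called lower in knockouts. In MPP it had 35.9, 28.7 and 28.4 TPM in knockouts, against 65.2, 58.5 and 56.5 TPM in floxed controls. In LT-HSC it had 30.4, 27.3 and 24.3 TPM in knockouts, against 48.5, 50.1 and 33.4 TPM in floxed controls. The groups did not overlap in either cell type. Irf1 fell by 0.94 ± 0.16 (SE, log2, limma adjusted p = 0.0217) in MPP and by 0.65 ± 0.16 (adjusted p = 0.0415) in LT-HSC, and the difference between the 2 falls did not pass the interaction test (-0.29 ± 0.23, adjusted p = 0.612). On deposited TPM the LT-HSC change of Irf1 was -0.04, where the median over all genes was 0.52. The MPP call held without MPP knockout 1 and was lost without any of the other 5 libraries of that comparison, and the LT-HSC call was lost without LT-HSC floxed control 1 or 2 or without LT-HSC knockout 2 or 3.

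In MPP, 0 members were higher and 1 lower in knockouts, against 0.13% and 0.465% of all genes, and 6 members had an unadjusted p under 0.05 in limma (9.62% of all genes did). Ifitm1 had 785, 698 and 782 TPM in MPP knockouts, against 349, 414 and 313 TPM in floxed MPP. Every knockout library was above every control, and the log2 difference of 1.08 ± 0.24 did not pass (limma adjusted p = 0.0807), but passed under quantile scaling (adjusted p = 0.0188). Levels of the inducible genes overlapped between genotypes in MPP, as those of Oasl1, Rsad2 and Isg15 given above show.

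In LT-HSC of batch 1, 4 members were higher and 1 lower in knockouts, against 2.35% and 2.7% of all genes. The genes called higher were 3 oligoadenylate synthetases and Xaf1, a protein that counters an inhibitor of cell death. Oas2 had 5.93, 11.1 and 8.40 TPM in LT-HSC knockouts, against 1.5, 3.03 and 3.04 TPM in floxed controls. Oas1a had 13.1, 14.5 and 14.1 TPM in knockouts, against 9.65, 10.1 and 9.36 TPM in floxed controls. Oas3 had 10.8, 9.62 and 9.73 TPM in knockouts and 7.32, 7.23 and 6.04 TPM in floxed controls. The 3 synthetases lie in a cluster on chromosome 5, and none overlapped between the groups. Oas2 rose by 1.42 ± 0.25 (SE, log2, limma adjusted p = 0.016), Oas1a by 0.47 ± 0.11 (adjusted p = 0.0339) and Oas3 by 0.49 ± 0.13 (adjusted p = 0.0471). Xaf1 had 30.8, 30.1 and 28.3 TPM in knockouts, against 24.5, 18.4 and 19.7 TPM in floxed controls, and rose by 0.50 ± 0.13 (limma adjusted p = 0.0422).

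**Figure D4:**
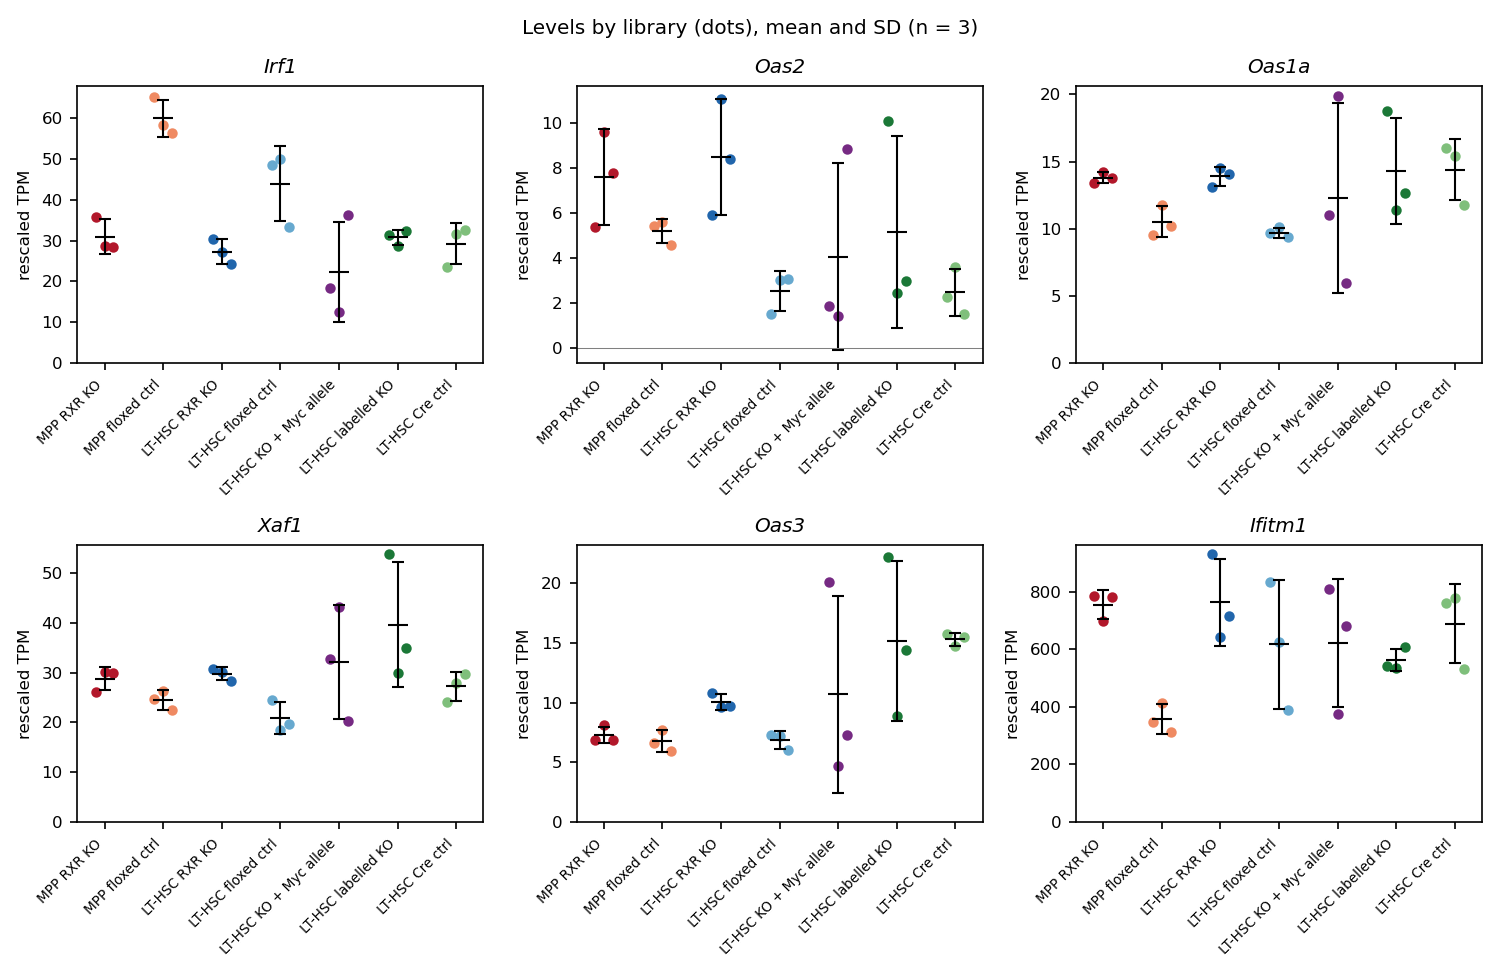
Rescaled TPM of 6 genes by group, each dot 1 library and the bars mean and SD of 3 libraries. Irf1 is lower in RXR knockouts than in floxed controls of both cell types, Oas2 is higher in LT-HSC knockouts, and the 3 batch 2 groups overlap for these genes, except that Xaf1 is higher in all libraries labelled knockout than in all Cre controls.

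These LT-HSC calls rest on few libraries. Without LT-HSC knockout 2 or knockout 3 no member was called higher, by the same limma test, and without LT-HSC knockout 1 or floxed control 2 or 3 there were 2. On deposited TPM 36 members were called higher and 0 lower, against 44.6% and 0.58% of all genes, and the median log2 change was 0.74 over the members and 0.52 over all genes. After rescaling, the members' median was 0.17 against -0.02 for all genes. The difference of the Oas2 knockout effect between MPP and LT-HSC did not pass the interaction test (-0.98 ± 0.35, limma adjusted p = 0.311), and 0 of 46 members passed it, with 4 at an unadjusted p under 0.05 (12.9% of all genes), against 0.00684% of genes called higher and 0.0205% lower.

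Among 71 further interferon-stimulated genes, 4 were higher and 0 lower in LT-HSC knockouts. They were Oas1g, a close copy of Oas1a, at 10.6 ± 2.51 TPM in knockouts and 4.14 ± 0.834 TPM in floxed controls (SD, n = 3 each), Phf11d at 11.1 ± 3.11 and 4.29 ± 1.59 TPM, Trim30a and Slfn9. No receptor or upstream sensing gene passed in LT-HSC or in MPP knockouts, with 0 calls among 10 and 15 tested in limma and 2 and 1 at an unadjusted p under 0.05 in LT-HSC and 0 and 3 in MPP. The ligands are not read here, since they entered the fit through their levels in MPP. Among inhibitors, Usp25 fell by 0.52 (log2, limma adjusted p = 0.0383) in LT-HSC knockouts. Other cell markers moved here as well, with a summed level of 10 neutrophil markers of 138 to 1020 TPM in LT-HSC knockouts and 45.9 to 109 TPM in floxed controls, and of 11 erythroid markers of 232 to 349 and 494 to 907 TPM. Of the erythroid markers 7 were called lower and of 8 neutrophil markers tested none was called. Of the LT-HSC markers 4 of 14 were called higher in knockouts and of the MPP markers 2 of 10 lower, and the part of all these markers in these results was not tested.

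Batch 2 gave no call among the members. Between the libraries labelled knockout and the Cre controls 0 members were higher and 0 lower, with 6 at an unadjusted p under 0.05 in limma (3.89% of all genes), against 0.00737% and 0.0516% of 13571 genes called. Bst2 (tetherin), which holds budding virus at the cell surface, had 59.5, 62.9 and 55.3 TPM in the libraries labelled knockout, against 24.9, 21.6 and 35.8 TPM in Cre controls, without overlap (log2 difference 1.11 ± 0.28, limma adjusted p = 0.792). Irf7, the factor that amplifies interferon alpha transcription, had 19.5, 14.0 and 9.78 TPM in the libraries labelled knockout, against 7.92, 7.52 and 5.64 TPM in Cre controls. Ddx58 had 84.6, 74.2 and 59.4 TPM, against 45.3, 48.0 and 51.3 TPM. For all 3 genes the groups were apart, yet the differences of Irf7 (0.90 ± 0.31) and Ddx58 (0.57 ± 0.19) also missed the threshold (limma adjusted p = 0.935 each).

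The Myc allele libraries had 0 calls against the Cre controls, with 2 members at an unadjusted p under 0.05 in limma, as were 9.45% of all genes (0.0295% of all genes called higher and 0.0516% lower). They also had 0 calls against the libraries labelled knockout, where 0 of all genes passed (0.0%) and 2 members had an unadjusted p under 0.05 (5.42% of all genes). Without Myc allele 1, 11 members had an unadjusted p under 0.05 against Cre controls, where 3.13% of all genes were called higher and 2.76% lower, and 14 did against the libraries labelled knockout, with no member called in either. Bst2 had 69.8, 60.2 and 32.6 TPM in Myc allele libraries, overlapping the Cre controls. Isg15 had 10.5, 1.48 and 6.39 TPM in Myc allele libraries, against 17.7, 15.1 and 9.69 TPM in Cre controls and 19.7, 16.3 and 9.48 TPM in the libraries labelled knockout. Its log2 differences were -1.31 ± 0.50 (limma adjusted p = 0.523) and -1.38 ± 0.50 (adjusted p = 0.877). Irf7 had 7.37, 4.44 and 3.76 TPM in Myc allele libraries, all below the libraries labelled knockout (log2 difference -1.31 ± 0.31, limma adjusted p = 0.719). Ddx58 differed from Cre controls by 0.41 and Oasl2 from the libraries labelled knockout by -0.60, without a call. Replicates were far apart here, with a median SD over the members of 0.46 (log2) in Myc allele libraries and 0.42 in those labelled knockout, against 0.14 in Cre controls.

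With both batches in 1 fit, 0 members were called between LT-HSC labelled knockout and their controls, as was 0.0% of all genes in each direction. In limma 12 members (26.1%) had an unadjusted p under 0.05, as did 20.3% of all genes, and Ddx58 (0.48 ± 0.11, adjusted p = 0.0849), Ifit3 (0.78 ± 0.20, adjusted p = 0.0937) and Xaf1 (0.49 ± 0.13, adjusted p = 0.0995) had the lowest. Without labelled knockout 6, 4 members were called higher, together with 3.34% of all genes. Xaf1 differed by 0.49 within batch 2 and by 0.50 within batch 1, while Oas2 differed by 0.66 and 1.42 and Irf1 by 0.08 and -0.65. The difference between the batches was not called for any member (0 of 46, 3 at an unadjusted p under 0.05 in limma where 9.99% of all genes were, against 0.0696% of genes in each direction), with Irf1 at 0.74 ± 0.25 (adjusted p = 0.346), Irf7 at 0.80 ± 0.31 (0.41) and Bst2 at 1.00 ± 0.39 (0.417). The control genotype changes with the batch, so the batch and the control cannot be told apart. For 18 of 46 members all Cre controls were above all floxed control LT-HSC and for 4 all were below, against 20.2% and 23.1% of 15169 genes.

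Splicing was read as the share of junction reads on an examined junction (PSI, 0 to 1), and 224 of 46443 events lay in members. Between MPP knockouts and floxed MPP, 3 of 178 member events with a value in every library passed (limma, adjusted p below 0.05, with PSI shifted by 0.1 or more), against 0.199% of all events. The junction that joins Ifih1 exons 11 and 12, set against reads into intron 11, had a PSI of 1.0 in all 3 MPP knockouts, against 0.606, 0.565 and 0.68 in floxed MPP. It was 1.0 in all 15 LT-HSC libraries, so floxed MPP stood alone (difference 0.383 ± 0.028, limma adjusted p = 0.00153). This junction runs between positions 62606181 and 62605700 of chromosome 2 (mm10). Cmpk2, a mitochondrial nucleotide kinase beside Rsad2, showed the reverse pattern, with reads into intron 1 at a PSI of 0.352, 0.477 and 0.356 in MPP knockouts, against 0.0 in floxed MPP and in all LT-HSC libraries (difference 0.395 ± 0.032, limma adjusted p = 0.00247). The third event was the complementary Cmpk2 junction, at 0.575, 0.434 and 0.537 in MPP knockouts and 1.0, 0.968 and 0.904 in floxed MPP. It was thus below 1.0 in floxed MPP 2 and 3 too. Reads across the end of Cmpk2 intron 2 overlapped, at 0.328, 0.517 and 0.231 in MPP knockouts and 0.157, 0.468 and 0.0 in floxed MPP.

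**Figure D5:**
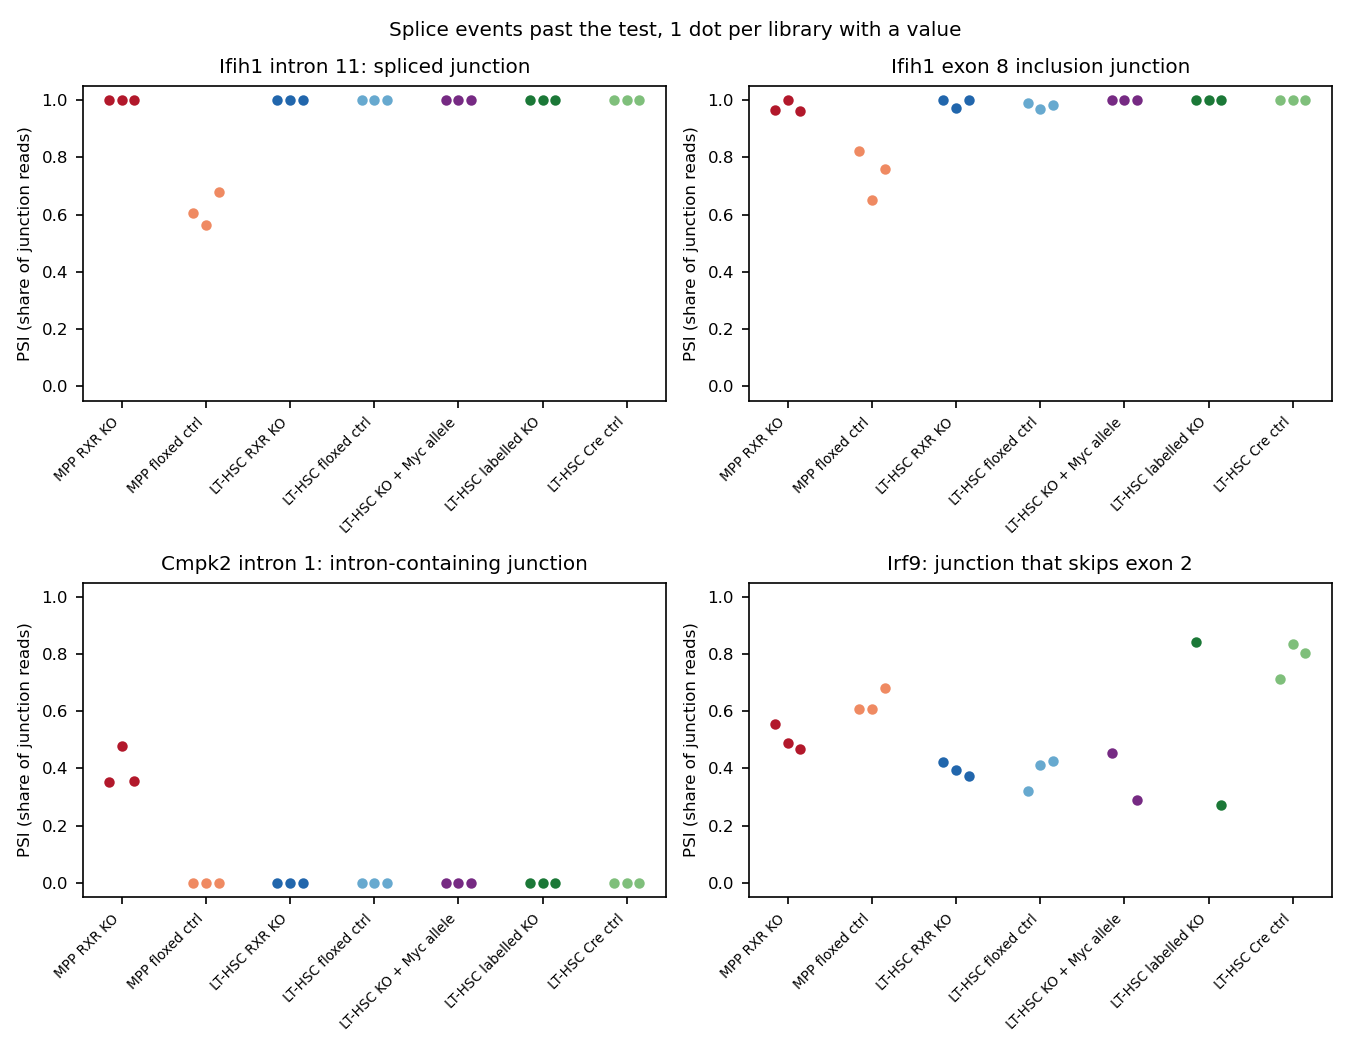
PSI by library for 4 splice events of members, by group, each dot 1 library with a value. The Ifih1 intron 11 junction is below 1 in floxed MPP alone, and the Irf9 junction varies between batches. The PSI shown for reads into Cmpk2 intron 1 is above 0 in knockout MPP alone, but its complementary junction is below 1 in 2 floxed MPP libraries too.

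Floxed MPP differed from floxed LT-HSC in 3 member events, against 0.486% of all events. Beside Ifih1 intron 11 these were the junction that includes Ifih1 exon 8, at 0.822, 0.651 and 0.761 in MPP and 0.991, 0.971 and 0.983 in LT-HSC (difference -0.237 ± 0.039, limma adjusted p = 0.0362), and an Irf9 junction that skips exon 2. The Irf9 junction had a PSI of 0.607, 0.609 and 0.682 in floxed MPP, against 0.321, 0.413 and 0.426 in floxed LT-HSC (difference 0.246 ± 0.037, limma adjusted p = 0.0275). All 3 events separated the groups, but the complementary Irf9 junction, which includes exon 2, did not. It had a PSI of 0.321, 0.17 and 0.318 in floxed MPP and 0.514, 0.25 and 0.148 in floxed LT-HSC. In LT-HSC knockouts of batch 1, 0 of 178 member events passed, against 0.166% of all events. Between the libraries labelled knockout and Cre controls 0 of 123 did, against 0.0389%. At an unadjusted p under 0.05 in limma there were 22 and 6 member events, and the share of all events at that level was not counted.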

How the data were processed

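The authors deposited a table of TPM per Ensembl gene for 21 libraries and a table of splicing fractions (PSI, 0 to 1) for 46443 events. Per the submitters' processing notes, kallisto, STAR 2.6 and the build mm10 were used; neither the transcript set nor the program that called splice events is given in the sources used here. The splicing table was selected on spread, the lowest value of its own spread column being 0.15. Of 28987 identifiers, 94.73% matched a symbol. Per the labels' protocols, amplified cDNA of pooled animals was sequenced.

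The TPM scale depends on what else fills a library, so every library was rescaled with a size factor (median of ratios, 14964 genes above 0 in all libraries). A gene entered a fit where 3 or more of its libraries reached 1 TPM. The test on log2(rescaled TPM + 1) was that of limma 3.58.1 (R 4.3.3, trend with the mean level), Benjamini-Hochberg adjusted over all genes tested; the pseudocount of 1 understates changes of low genes. Batch 1 (12 libraries) and batch 2 (9 libraries) were fitted separately, and knockout and control LT-HSC of both with a batch term. PSI was tested with limma on events measured in all libraries fitted. Figures used Python 3.11.15 and matplotlib 3.10.9.

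The members, lists and tests were chosen with earlier results of these data known. Every member past the test was named where 12 or fewer passed, otherwise the 8 with the largest log2 change per direction, with levels per library for the first 6 and for the highest member of each role group; where none passed, the 3 with the lowest p. Up to 4 genes of each pathway list were named by lowest p. Genes named beyond that were chosen after their values were seen, and 1 gene is not reported here. Same-numbered knockout LT-HSC and MPP deviated together (correlations over genes of 0.541, 0.157 and 0.272), which was taken as pairing. The deposited column names repeat the same knockout and control numbers in both cell types, but the labels do not say that these share animals. Alternatives were deposited TPM, quantile scaling, size factors of the fit alone, a pseudocount of 0.1, no filter, the replicate block, and leaving out each library.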

Additional observations from a re-analysis of the deposited data

How the results depend on the processing

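Counts of members called moved with the processing as follows. In LT-HSC knockouts of batch 1, 36 members were higher on deposited TPM and 2 with no filter on low values, against 4, and 0 were lower on deposited TPM, under quantile scaling or with no filter, against 1. In MPP knockouts 1 member (Ifitm1) was higher under quantile scaling or with the replicate block, against 0, and 0 were lower on deposited TPM, under quantile scaling or with no filter, against 1. Between floxed MPP and LT-HSC 7 were higher with no filter, against 11, and 3 were lower on deposited TPM, against 10. With 2 values per group in place of all, 5 member splice events passed between MPP knockouts and floxed MPP and 5 between floxed MPP and LT-HSC, against 3 each. Leaving out 1 library gave 0 to 3 higher and 0 to 1 lower in LT-HSC knockouts, 0 to 1 lower in MPP knockouts, 7 to 13 higher and 6 to 15 lower between floxed MPP and LT-HSC, 5 to 7 lower between knockout MPP and LT-HSC, and 0 to 4 higher over both batches. For splice events it gave 3 to 8 in MPP knockouts, 1 to 5 between floxed MPP and LT-HSC, 0 to 1 in LT-HSC knockouts of batch 1 and 0 to 2 in batch 2. On deposited TPM the difference of the knockout effect between cell types was -0.10 for Irf9, against 0.42, and that between batches was -0.13 for Irf1, against 0.74, with the median of all genes shifted by -0.45 and -0.73. The cause of the other changes was not tested. A pseudocount of 0.1 left 3 members higher in LT-HSC knockouts of batch 1, against 4. Size factors of the fit alone also left 3 there, and 10 higher between floxed MPP and LT-HSC, against 11. Numbers of knockouts and controls were not taken as paired (correlations of -0.143 to 0.282), nor were those of floxed MPP and LT-HSC (0.051 to 0.082). With the replicate block 14 members were higher and 10 lower between floxed MPP and LT-HSC. Beyond Ifitm1 and the values given beside the results the replicate block left the counts within 1.5 times. No paired analysis was possible for the Myc allele libraries because the batch 2 groups they were set against do not share their numbers. The unknown depth sets no floor on low levels such as those of the ligands in LT-HSC.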

Other observations

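Some values belong to no comparison above. Labelled knockout 4 was the highest of the 15 LT-HSC libraries for 20 of 46 members and Myc allele 1 for 8, while Myc allele 2 was the lowest for 15 and LT-HSC floxed control 3 for 14. The share of all genes for which these libraries were extreme was not counted, so these counts are not read as a result about the members. Over all genes the median SD was 0.33 (log2) in the libraries labelled knockout and 0.45 in the Myc allele libraries, against 0.15 in Cre controls. Labelled knockout 4 held 34.5 TPM of Zbp1, 39.3 TPM of Irgm1 and 30.4 TPM of Dhx58, a helicase related to RIG-I. The other libraries labelled knockout had 15.1 and 16.0 TPM of Zbp1. Myc allele 2 held 1.48 TPM of Isg15 and 1.22 TPM of Ifit1, the lowest of any library for both.

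The LT-HSC controls of the 2 batches also differed. Oas3 had 15.7, 14.7 and 15.5 TPM in Cre controls, against 7.32, 7.23 and 6.04 TPM in floxed controls. The Irf9 junction that skips exon 2 had a PSI of 0.711, 0.836 and 0.804 in Cre controls, against 0.321, 0.413 and 0.426 in floxed controls. Its complementary junction overlapped, at 0.289, 0.098 and 0.18 in Cre controls and 0.514, 0.25 and 0.148 in floxed controls. Batch and control genotype cannot be told apart here, and these differences were not tested.

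Among members with both a promoter window and a measured level, the ISRE core was in 5 of 7 called higher in floxed MPP, 4 of 8 called lower and 8 of 20 without a call, and the GAS core was in 1 of 7, 4 of 8 and 7 of 20. Among splice events, 12 of the 15 of Ifih1 had an unadjusted p under 0.05 in limma between MPP knockouts and floxed MPP. So did 6 of the 21 of Irf1, and 30 of the 178 member events in all. Several Ifih1 events read the same intron from both ends or as complementary junctions, so they are not separate results. The share of all events at this level was not counted, so these counts are not read further.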
